A study of Mus musculus with 44 samples.

Results

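Pyruvate dehydrogenase turns pyruvate into acetyl-CoA inside mitochondria, and the tricarboxylic acid cycle oxidises that acetyl-CoA to carbon dioxide while it loads the electron carriers of the respiratory chain. Heart muscle, which depends on this oxidation for nearly all of its energy, also burns ketone bodies, which Bdh1 and Oxct1 prepare for the cycle, and breaks down the branched-chain amino acids leucine, isoleucine and valine, whose carbon enters as acetyl-CoA or as succinyl-CoA. The genes of these routes were followed in the left ventricle of a mouse model of dilated cardiomyopathy, with and without antibody treatment directed at CTGF (connective tissue growth factor), a secreted matrix-associated protein.

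The gene set was chosen by symbol, with earlier results of these data known. Counts of its genes beside the share of all genes are therefore no independent test. The set holds 37 genes in 4 role groups: 6 of pyruvate entry, 18 of the cycle steps, 2 of ketone use and 11 of branched-chain amino acid breakdown. Of the 37, 36 had a probe set that the platform annotation gives to 1 gene, out of 12394 genes tested in all. The remaining gene, Pdhx, which encodes a structural subunit of pyruvate dehydrogenase, was not analysed here.

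RNA from 44 left ventricles, 1 mouse per array, was hybridised to mouse Affymetrix 430A 2.0 arrays. The first group was 12 PKCε mice given FG-3149, the antibody to CTGF (6 females and 6 males). A second group of 10 PKCε mice received nonimmune mouse IgG (5 females and 5 males). FVB/N mice, the nontransgenic strain, formed a group of 12 on FG-3149 (6 females and 6 males) and a group of 10 on IgG (7 females and 3 males). PKCε mice have the FVB/N background and carry a rabbit PKCε transgene with the activating A159E change, which the mouse Myh6 promoter expresses in cardiomyocytes. All mice were injected into the peritoneum with 30 mg/kg of antibody or IgG 2 times a week for 3 months, from 3 months of age, and hearts were taken at 6 months. The FVB/N mice came from a commercial breeder and no label calls them littermates of the PKCε mice. Mouse numbers ran from 38 to 191 in the PKCε FG-3149 group, 192 to 362 in the PKCε IgG group, 338 to 349 in the FVB/N FG-3149 group and 420 to 443 in the FVB/N IgG group. Between groups whose numbers do not overlap, group and any difference tied to the mouse number cannot be told apart.

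Every value below is a log2 ratio of the array signal to that gene's median over the 44 arrays, so 0 is the gene's middle level and a level cannot be compared between genes. Differences between groups are log2 differences ± their standard error from a limma fit of all 44 arrays with sex as a covariate, p-values were adjusted over all 12394 genes (Benjamini-Hochberg), and a gene was called at an adjusted p under 0.05. Group values are given as the lowest, median and highest array. Each gene is read from its most variable probe set. For some genes other probe sets are given too, with a p adjusted over all probe sets. Where none is given, other probe sets of a gene may still differ in size or call. In bulk ventricle, fewer cells of a type and less RNA per cell cannot be told apart.

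Some arrays carried transcripts of neighbouring tissue. Atrial markers (Sln, Myl7, Myl4) stood more than 4 log2 units above their medians on 10 arrays: 2 of PKCε FG-3149 hearts, 2 of PKCε IgG hearts, 1 of FVB/N FG-3149 hearts and 5 of FVB/N IgG hearts. The lung epithelial genes Sftpc and Scgb1a1 both passed 3 log2 units on 2 arrays, PKCε IgG replicates 9 and 10, and the brown fat gene Ucp1 passed 2 on 4 arrays, all FVB/N IgG. Replicate 11 of the FVB/N FG-3149 group, labelled female, had a mean of 3.15 over 3 Y-linked genes, against 3.81 to 4.62 on the arrays labelled male and -1.14 to -0.012 on the other arrays labelled female. The main counts are given again without these arrays. Liver markers (Alb, Apoa1, Ttr and Serpina1c) were also high on some arrays. Their mean reached 4.23 in PKCε FG-3149 hearts and 7.44 in FVB/N FG-3149 hearts. In the IgG groups its highest values were 1.26 in PKCε and 1.98 in FVB/N hearts. No count was run without the arrays of high liver markers, and their part in the results was not tested.

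The RefSeq promoter table (GRCm38.p6; 250 bases before to 50 bases after a transcription start) held 34 of the 37 genes. Promoters of Bdh1, Ivd, Pccb and Sdhd are shown because the first carried the widest line difference of the probe sets used, the next 2 differed in antibody response between the lines, and the last held 3 kinds of searched motif. Hibadh and Ogdh, not shown, also held 3 kinds over their listed starts. Capitals mark matches, on either strand, to the CCAAT box (those letters), the GC box (letters GGGCGG) and the estrogen-related receptor element (letters TCAAGGTCA). They also mark, on either strand, the cAMP response element (letters TGACGTCA) and a site of nuclear respiratory factor NRF1. That NRF1 site allows any base at a middle position. No 2 matches overlap in these windows. For Bdh1 the table lists 2 starts, and the one with a match is printed.
Bdh1 (chr16:31428503-31428802, plus strand): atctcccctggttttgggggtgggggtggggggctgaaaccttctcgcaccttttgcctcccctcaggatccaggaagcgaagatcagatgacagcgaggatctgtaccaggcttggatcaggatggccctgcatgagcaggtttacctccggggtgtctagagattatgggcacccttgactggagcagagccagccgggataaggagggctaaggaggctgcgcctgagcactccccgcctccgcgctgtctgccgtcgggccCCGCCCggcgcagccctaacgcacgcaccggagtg
Ivd (chr2:118861744-118862043, plus strand): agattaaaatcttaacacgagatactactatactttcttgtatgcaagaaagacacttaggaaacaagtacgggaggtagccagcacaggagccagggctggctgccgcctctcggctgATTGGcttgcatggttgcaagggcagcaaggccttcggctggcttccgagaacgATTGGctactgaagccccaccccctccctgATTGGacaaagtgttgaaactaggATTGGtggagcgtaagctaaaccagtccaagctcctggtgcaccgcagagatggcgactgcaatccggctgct
Pccb (chr9:101034835-101035134, minus strand): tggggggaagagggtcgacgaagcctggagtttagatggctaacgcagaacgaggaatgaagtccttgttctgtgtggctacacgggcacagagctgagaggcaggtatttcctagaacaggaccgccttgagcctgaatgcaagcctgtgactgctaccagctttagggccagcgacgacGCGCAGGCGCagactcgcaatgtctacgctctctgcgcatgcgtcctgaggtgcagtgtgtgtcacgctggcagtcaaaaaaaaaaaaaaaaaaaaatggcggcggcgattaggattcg
Sdhd (chr9:50603800-50604099, minus strand): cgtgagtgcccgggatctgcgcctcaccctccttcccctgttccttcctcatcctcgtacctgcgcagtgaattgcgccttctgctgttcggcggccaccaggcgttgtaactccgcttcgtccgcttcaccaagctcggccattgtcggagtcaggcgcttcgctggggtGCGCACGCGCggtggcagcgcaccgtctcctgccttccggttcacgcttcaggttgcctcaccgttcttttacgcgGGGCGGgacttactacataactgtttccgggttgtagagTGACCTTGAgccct

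The Ivd window held 4 CCAAT boxes, all read on the opposite strand, the Bdh1 window 1 GC box, the Pccb window 1 NRF1 site, and the Sdhd window 1 NRF1 site, 1 GC box and 1 estrogen-related receptor element. Among the 34 genes, 21 (61.8%) had a CCAAT box, against 41.1% of the 27025 genes in the table. A GC box also occurred in 21 (61.8%), against 38.2% of all genes. The NRF1 letters were present for Dld, Hibadh, Pccb, Sdha, Sdhd and Sucla2, 17.6% against 5.19%. The estrogen-related receptor element was found for Sdhd alone, 2.94% against 0.466%, and the cAMP response element for Mdh2 and Ogdh, 5.88% against 2.03%. The median G+C content of these windows was 60.0% for the gene set, against 52.7% over all starts. These matches describe the letters in the window and no binding was measured.

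The first comparison asked how the transgenic hearts differed from nontransgenic ones under control IgG. Of the 36 genes, 34 were lower in PKCε IgG hearts than in FVB/N IgG hearts and none was higher, also at an unadjusted p under 0.05 in limma. Of all genes tested, 21.5% were called lower and 20.7% higher. Mdh1, cytosolic malate dehydrogenase, and Oxct1, the succinyl-CoA transferase of ketone use, were the 2 genes not called. All 36 estimates were below 0, with a median of -0.56 against -0.046 over all genes. The 2 groups did not overlap on any array for 8 genes (Idh3a, Idh3g, Suclg1, Sdhb, Fh1, Bckdhb, Ivd and Mccc1), against 1.72% of all genes that were separated in this direction.

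**Figure D1:**
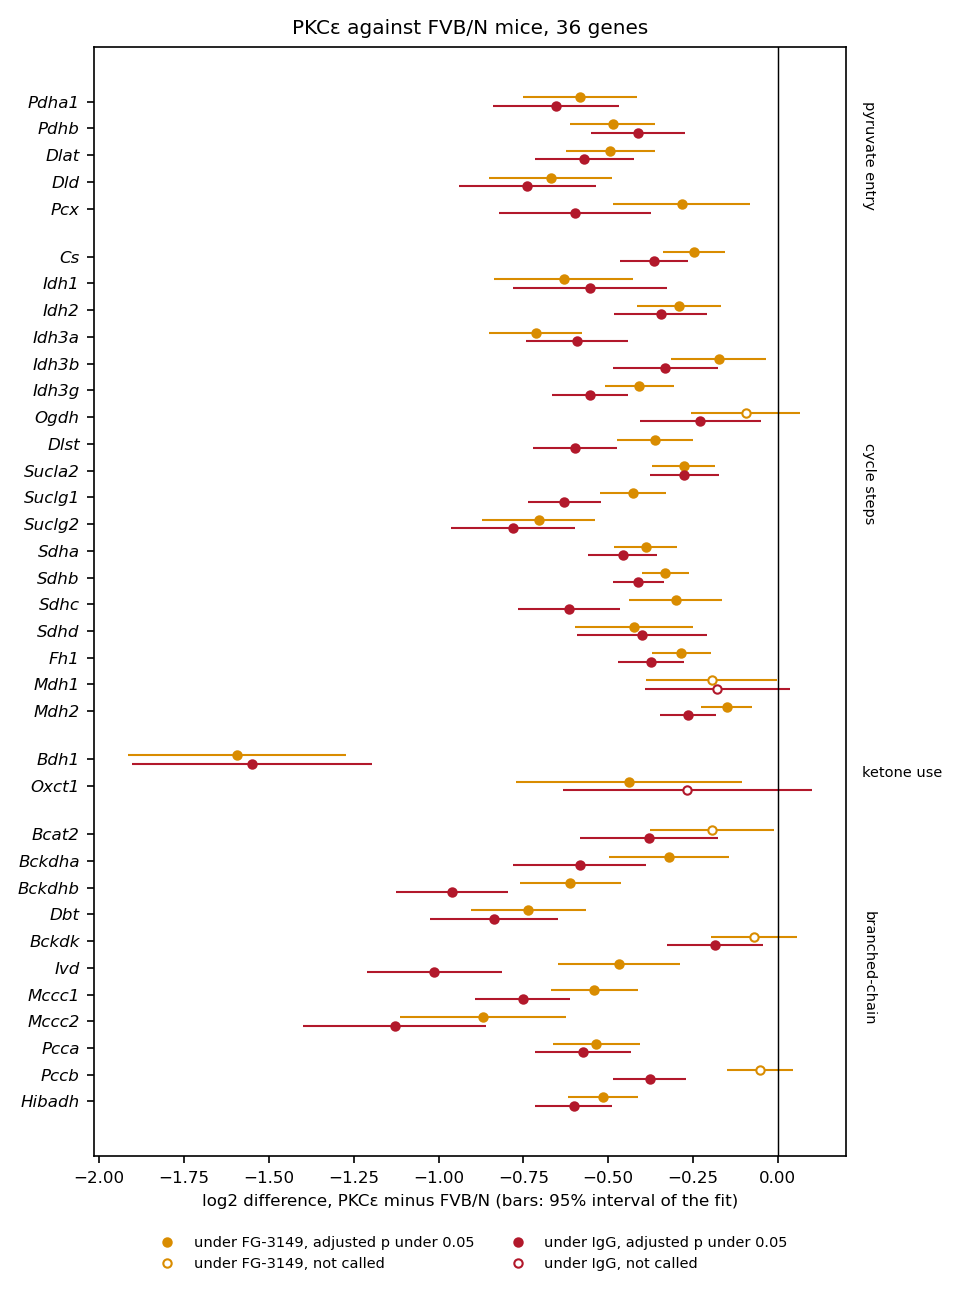
The log2 difference of PKCε minus FVB/N mice for each of the 36 genes, by role group, under FG-3149 (orange) and under IgG (red), with bars for the 95% interval of the fit and open circles for genes not called. All points lie left of 0, and Bdh1 lies furthest left under both treatments at -1.59 and -1.55.

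All 5 measured genes of pyruvate entry fell in PKCε IgG hearts, with a median difference of -0.60. Pdha1, the catalytic alpha subunit of pyruvate dehydrogenase, stood at -0.84, -0.49 and -0.16 in PKCε IgG hearts and at -0.21, 0.18 and 0.31 in FVB/N IgG hearts. Only the edges of the 2 groups overlapped, since 9 of the 10 PKCε arrays lay below every FVB/N array. The difference was -0.65 ± 0.092 (adjusted p = 1.99e-07), a level 63.6% of that in FVB/N hearts. A second Pdha1 probe set gave -0.27 (adjusted p = 1.95e-06). Dlat, the acetyltransferase core of the complex, had values of -0.79, -0.30 and 0.052 in PKCε IgG hearts and -0.21, 0.29 and 0.48 in FVB/N IgG hearts, a difference of -0.57 ± 0.072 (adjusted p = 1.75e-08). Dld, the dihydrolipoyl dehydrogenase that the pyruvate, alpha-ketoglutarate and branched-chain complexes share, had values of -1.02, -0.40 and -0.067 in PKCε IgG hearts and -0.28, 0.32 and 0.58 in FVB/N IgG hearts, a difference of -0.74 ± 0.10 (adjusted p = 8.04e-08). For both genes all 10 PKCε arrays were below the FVB/N median, and the groups overlapped. Pdhb, the beta subunit partner of Pdha1, fell by less, with a difference of -0.41 ± 0.068 (adjusted p = 4.11e-06). Pcx, pyruvate carboxylase, which makes oxaloacetate from pyruvate, had a difference of -0.60 ± 0.11 (adjusted p = 2.54e-05), and its 4 control probe sets along the transcript gave -0.50, -0.30, -0.20 and -0.19.

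Of the 18 cycle genes, 17 fell, and the median difference of the group was -0.41. Suclg1 encodes the alpha subunit shared by both forms of succinyl-CoA ligase, the enzyme that makes a nucleotide triphosphate directly in the cycle. Its values were -0.71, -0.39 and -0.17 in PKCε IgG hearts and 0.043, 0.25 and 0.40 in FVB/N IgG hearts. The groups did not overlap, and the difference was -0.63 ± 0.053 (adjusted p = 1.42e-12), or 64.7% of the FVB/N level. Of the 2 beta subunits, Suclg2, of the GTP-forming enzyme, differed by -0.78 ± 0.091 (adjusted p = 3.08e-09), and Sucla2, of the ATP-forming enzyme, by -0.28 ± 0.05 (adjusted p = 1.98e-05). Their 95% intervals, -0.96 to -0.60 and -0.38 to -0.17, do not meet, although the difference between the 2 genes was not tested.

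Sdhb, the iron-sulfur subunit of succinate dehydrogenase, stood at -0.46, -0.21 and -0.047 in PKCε IgG hearts and at 0.008, 0.16 and 0.31 in FVB/N IgG hearts, again without overlap, and fell by 0.41 on the log2 scale (adjusted p = 1.23e-11). The other 3 subunits of that complex fell too, the flavoprotein Sdha by 0.46, the membrane anchor Sdhc by 0.61 and the membrane anchor Sdhd by 0.40. Sdhc values were -0.96, -0.45 and -0.17 in PKCε IgG hearts and -0.45, 0.14 and 0.33 in FVB/N IgG hearts. The single FVB/N array at the low end, replicate 2, accounts for the overlap of Sdhc. Idh3g, the regulatory gamma subunit of the NAD-linked isocitrate dehydrogenase, had values of -0.66, -0.33 and -0.16 in PKCε IgG hearts and 0.031, 0.18 and 0.37 in FVB/N IgG hearts, which did not overlap, and a difference of -0.55 ± 0.056 (adjusted p = 9.23e-11).

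The catalytic subunit of the same enzyme, Idh3a, fell by 0.59 and its partner Idh3b by 0.33. Idh2, the NADP-linked mitochondrial isocitrate dehydrogenase, had values of -0.86, -0.27 and 0.018 in PKCε IgG hearts and -0.28, 0.00053 and 0.28 in FVB/N IgG hearts, a difference of -0.35 ± 0.069 (adjusted p = 6.88e-05) with overlapping groups. The cytosolic NADP-linked enzyme Idh1 differed by -0.55 ± 0.11 (adjusted p = 9.74e-05). In the alpha-ketoglutarate dehydrogenase complex, the succinyltransferase Dlst fell by 0.60 (adjusted p = 1.97e-10), although its second probe set gave -0.16 and was not called (adjusted p = 0.163). The decarboxylase Ogdh differed by -0.23 ± 0.088 (adjusted p = 0.0336). The Ogdh call was lost under 7 of 16 alternative settings, the fit without sex among them (adjusted p = 0.0699), and its estimate turned positive under 1. Citrate synthase (Cs) fell by 0.36, fumarase (Fh1) by 0.37 and mitochondrial malate dehydrogenase (Mdh2) by 0.26. Cytosolic Mdh1 was not called, at -0.18 ± 0.11 (adjusted p = 0.167). Its other probe sets gave -0.16, -0.081 and -0.095 (adjusted p = 0.00114, 0.017 and 0.117).

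Bdh1, the beta-hydroxybutyrate dehydrogenase that begins ketone body oxidation, had the widest difference of the 36 genes in the probe set used. It stood at -0.98, -0.45 and 0.052 in PKCε IgG hearts and at -0.63, 1.18 and 1.74 in FVB/N IgG hearts. One FVB/N array, replicate 2, lay at -0.63, within the PKCε range, and the next lowest lay at 0.28, above every PKCε array. The difference was -1.55 ± 0.18 (adjusted p = 1.68e-09), a level 34.2% of that in FVB/N hearts. A second Bdh1 probe set gave a smaller difference of -0.74 (adjusted p = 5.3e-07), less than that of Mccc2 or Ivd below. Oxct1, which activates acetoacetate with CoA taken from succinyl-CoA, had values of -0.64, -0.14 and 0.22 in PKCε IgG hearts and -0.82, 0.04 and 1.03 in FVB/N IgG hearts. These ranges overlapped almost wholly, and the difference of -0.27 ± 0.18 did not pass (adjusted p = 0.233, 95% interval -0.63 to 0.10). The choice of probe set bears on Oxct1: of its 3 other probe sets, with differences of -0.24, -0.20 and -0.21, the first 2 passed an adjustment over all probe sets (adjusted p = 0.000532 and 0.00175).

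All 11 branched-chain genes fell, with a median of -0.60. The branched-chain keto acid dehydrogenase, which commits the 3 amino acids to breakdown, fell in each of its own subunits. Bckdhb, its beta subunit, had values of -1.26, -0.57 and -0.20 in PKCε IgG hearts and 0.015, 0.34 and 0.52 in FVB/N IgG hearts, which did not overlap, a difference of -0.96 ± 0.082 (adjusted p = 1.65e-12). Its alpha subunit partner Bckdha differed by -0.58 ± 0.097 and the transacylase core Dbt by -0.84 ± 0.093. Bckdk, the kinase that switches this complex off, had the smallest difference of the group, -0.19 ± 0.07 (adjusted p = 0.0305), kept its call under 6 of 15 alternative settings and turned positive under 1. Bcat2, the mitochondrial aminotransferase of the step before, differed by -0.38 ± 0.10 (adjusted p = 0.0022).

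In the leucine branch, Ivd, isovaleryl-CoA dehydrogenase, had values of -1.76, -0.67 and -0.27 in PKCε IgG hearts and -0.13, 0.11 and 0.62 in FVB/N IgG hearts. The ranges did not overlap, and the difference was -1.01 ± 0.099 (adjusted p = 4.56e-11), or 49.6% of the FVB/N level. Both subunits of the next enzyme, methylcrotonyl-CoA carboxylase, fell. Its biotin-carrying alpha subunit Mccc1 stood at -0.74, -0.44 and -0.26 in PKCε IgG hearts and at -0.034, 0.32 and 0.41 in FVB/N IgG hearts, with no overlap, a difference of -0.75 ± 0.07 (adjusted p = 1.45e-11). Its beta subunit Mccc2 fell by 1.13 (adjusted p = 4.86e-09), to 45.7% of the FVB/N level.

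Hibadh, the hydroxyisobutyrate dehydrogenase of valine breakdown, stood at -0.83, -0.36 and -0.12 in PKCε IgG hearts and at -0.13, 0.14 and 0.38 in FVB/N IgG hearts. The ranges overlapped narrowly, with 9 of the 10 PKCε arrays below every FVB/N array, and the difference was -0.60 ± 0.057 (adjusted p = 2.1e-11). Propionyl-CoA carboxylase, which receives carbon of isoleucine and valine, fell in both subunits, Pcca by 0.57 and Pccb by 0.38. Pccb values were -0.58, -0.28 and 0.031 in PKCε IgG hearts and -0.11, 0.03 and 0.27 in FVB/N IgG hearts, and overlapped.

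**Figure D2:**
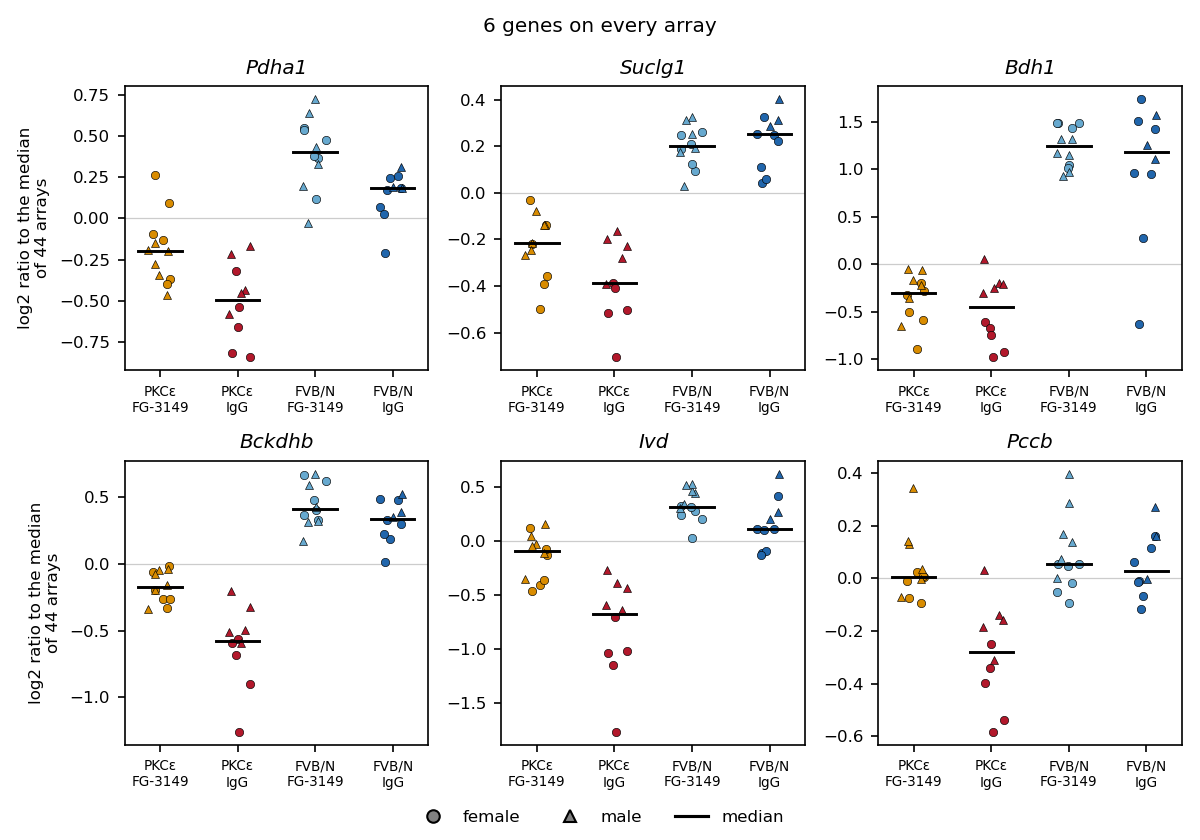
The log2 ratio of 6 genes on each of the 44 arrays by group, with circles for females, triangles for males and a black line for the group median. In all 6 panels the PKCε IgG median is the lowest of the 4, and in the Pccb panel the PKCε FG-3149 arrays, from -0.092 to 0.34, lie within the span of the FVB/N arrays, from -0.11 to 0.40.

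Of the 34 called genes, 17 had more than 1 probe set. Every other probe set passed for 16 of these and none for Dlst, while Mdh1 and Oxct1, not called, each had another probe set that passed.

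Genes of the same pathways outside the set, in lists also chosen with earlier results known, moved with it in part. Those tied to branched-chain breakdown were called lower in 11 of 16 measured cases and higher in 2. Mcee, the epimerase after propionyl-CoA carboxylase, differed by -0.81 ± 0.072 (adjusted p = 5.04e-12) and Mmut, the mutase that yields succinyl-CoA, by -0.59 ± 0.069 (adjusted p = 3.19e-09). Aldh6a1, the semialdehyde dehydrogenase that ends valine breakdown, differed by -0.86 ± 0.091 (adjusted p = 4.02e-10). Klf15, a transcription factor known to promote branched-chain breakdown in muscle, differed by -0.97 ± 0.11 (adjusted p = 1.01e-09). Bcat1, the cytosolic aminotransferase, named here after its value was seen, was higher by 0.80 ± 0.14 (adjusted p = 7.87e-06), the opposite direction to Bcat2.

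Among genes tied to ketone use, 2 of 5 were lower and 3 were not called. Slc16a7, a monocarboxylate carrier that takes up pyruvate and ketone bodies, fell by 1.12 (adjusted p = 2.23e-12). Acat1, the thiolase that splits acetoacetyl-CoA, fell by 0.40 (adjusted p = 0.00011). The carrier Slc16a1 was at -0.0079 ± 0.05 (adjusted p = 0.909) and the acetoacetate-activating cytosolic enzyme Aacs at 0.097 ± 0.093 (adjusted p = 0.401).

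Of 10 genes tied to pyruvate entry, 6 were lower and 1 higher. Lias, which makes the lipoate that Dlat, Dlst and Dbt carry, fell by 0.55 (adjusted p = 2.79e-10), and Mpc1, a subunit of the mitochondrial pyruvate carrier, by 0.25 (adjusted p = 0.000812). The 2 lactate dehydrogenase subunits moved oppositely, Ldhb at -0.26 ± 0.057 and Ldha at 0.20 ± 0.047 (adjusted p = 0.000254 and 0.000593). Of 15 genes tied to the cycle, 6 were lower and 2 higher. The lower ones included malic enzyme Me1 at -0.65, the malate-oxoglutarate carrier Slc25a11 at -0.57, and the aspartate aminotransferases Got1 at -0.62 and Got2 at -0.50. For comparison, fatty acid oxidation genes were lower in 17 of 20 cases (median -0.54) and respiratory chain subunits in 29 of 39 (median -0.28), and every estimate in both lists was below 0.

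Other cell types moved in the same comparison. The mean of 13 ventricular cardiomyocyte markers was -0.18 ± 0.11 in PKCε IgG hearts (SD, n = 10; range -0.37 to 0.011) and 0.071 ± 0.12 in FVB/N IgG hearts (SD, n = 10; range -0.13 to 0.27). Of those markers 6 were lower (Myh6, Ryr2, Atp2a2, Pln, Ckm and Tnni3), Myom1 was higher, and the other 6, Myl2 and Tnnt2 among them, were not called. All 8 fibroblast markers were higher, with marker means of 0.22 to 1.46 in PKCε IgG hearts and -0.87 to 0.26 in FVB/N IgG hearts. All 5 white adipocyte markers and 3 of 4 brown adipocyte markers were lower, with brown adipocyte means of -0.27 to 0.034 in PKCε IgG hearts and -0.31 to 2.01 in FVB/N IgG hearts. The 3 were Ucp1, Elovl3 and Cox7a1, the last also counted among the respiratory chain subunits, and Cidea was not called. Of the 36 genes, 33 were lower without the 4 arrays of high Ucp1, 33 without the 10 of high atrial markers and 32 without the 2 of high lung markers. The shares of all genes called lower were then 23.8%, 18.8% and 16.4%. With the ventricular marker mean as a covariate, a list that itself moved with the transgene, 22 were lower, where 7.01% of all genes were. The 3' minus 5' signal of Gapdh rises as RNA degrades. It was 0.30 ± 0.25 in PKCε IgG hearts and -0.035 ± 0.078 in FVB/N IgG hearts (SD). That of Actb was 0.09 ± 0.25 and 0.10 ± 0.099, and that of the Pcx control probe sets -0.14 ± 0.29 and 0.21 ± 0.36. With the Gapdh signal as a covariate 33 of the 34 called genes kept their call, and 15.0% of all genes were lower. What part cell composition or RNA quality had in the differences was not tested.

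Under FG-3149 the lines were compared a second time, in mice that share no array with the IgG groups. Of the 36 genes, 31 were lower in PKCε FG-3149 hearts than in FVB/N FG-3149 hearts and none was higher, also at the unadjusted level in limma, where 25.5% of all genes were called lower and 21.5% higher. The median difference was -0.42 against -0.048 over all genes, and 18 genes had groups that did not overlap, where 2.56% of all genes were separated in this direction. All 12 PKCε arrays lay below all 12 FVB/N arrays in the mean of each of the 4 role groups. Under IgG all 10 PKCε arrays lay below every FVB/N array in the mean of pyruvate entry. There 9 did so for cycle steps, 9 for branched-chain breakdown and 1 for ketone use. How often means of other gene sets separate in this way was not computed. All 8 fibroblast markers were higher in this comparison too, with marker means of 0.0016 to 0.98 in PKCε FG-3149 hearts and -1.09 to -0.46 in FVB/N FG-3149 hearts. Of 13 ventricular markers 5 were lower (Myh6, Ryr2, Pln, Tnni3 and Tnnt2) and Myom1 was higher, with means of -0.16 to 0.03 in PKCε FG-3149 hearts and 0.0081 to 0.19 in FVB/N FG-3149 hearts. Of the adipocyte markers, 2 of 4 brown were lower and none of 5 white was called in limma, also at the unadjusted level. The count of 31 became 23 with the ventricular marker mean as a covariate, 32 without the atrial arrays, 32 without the arrays of high Ucp1 and 31 without the lung arrays. In that order, 10.1%, 23.6%, 25.8% and 25.9% of all genes were called lower. The part of cell composition was not tested here either.

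Bdh1 stood at -0.89, -0.30 and -0.053 in PKCε FG-3149 hearts and at 0.93, 1.25 and 1.49 in FVB/N FG-3149 hearts. The ranges were far apart, with a difference of -1.59 ± 0.16 (adjusted p = 9.55e-11), or 33.1% of the FVB/N level. The second Bdh1 probe set gave -0.89 (adjusted p = 1.53e-09). Oxct1, not called under IgG, was lower here, at -1.01, -0.17 and 0.39 in PKCε FG-3149 hearts and -0.27, 0.23 and 0.88 in FVB/N FG-3149 hearts, a difference of -0.44 ± 0.16 (adjusted p = 0.0276) with overlapping ranges. The change of this line difference with treatment did not pass (interaction -0.17 ± 0.25, adjusted p = 0.821).

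Suclg1 had values of -0.50, -0.22 and -0.03 in PKCε FG-3149 hearts and 0.029, 0.20 and 0.33 in FVB/N FG-3149 hearts, without overlap, and differed by -0.43 ± 0.048 (adjusted p = 1.85e-09). Idh3a fell by 0.71, Suclg2 by 0.70 and Dld by 0.67, each without overlap. The 5 genes not called were Ogdh, Mdh1, Bcat2, Bckdk and Pccb. Pccb stood at -0.092, 0.0066 and 0.34 in PKCε FG-3149 hearts and at -0.094, 0.055 and 0.40 in FVB/N FG-3149 hearts, a difference of -0.051 ± 0.048 (adjusted p = 0.382, 95% interval -0.15 to 0.046). Ivd was still lower, by 0.47 (adjusted p = 4.36e-05), at 72.3% of the FVB/N level.

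The antibody was then compared with IgG inside the PKCε line. Of the 36 genes, 21 were higher in PKCε FG-3149 hearts than in PKCε IgG hearts and none was lower, also at the unadjusted level in limma, where 5.08% of all genes were called higher and 3.74% lower. The median difference was 0.20 against 0.016 over all genes. Branched-chain genes were called higher in 9 of 11 cases, cycle genes in 10 of 18, pyruvate entry genes in 2 of 5 and ketone genes in none of 2, with none of those 2 passing at the unadjusted level. No gene of the set had groups without overlap, a separation that 0.0645% of all genes showed in this direction.

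**Figure D3:**
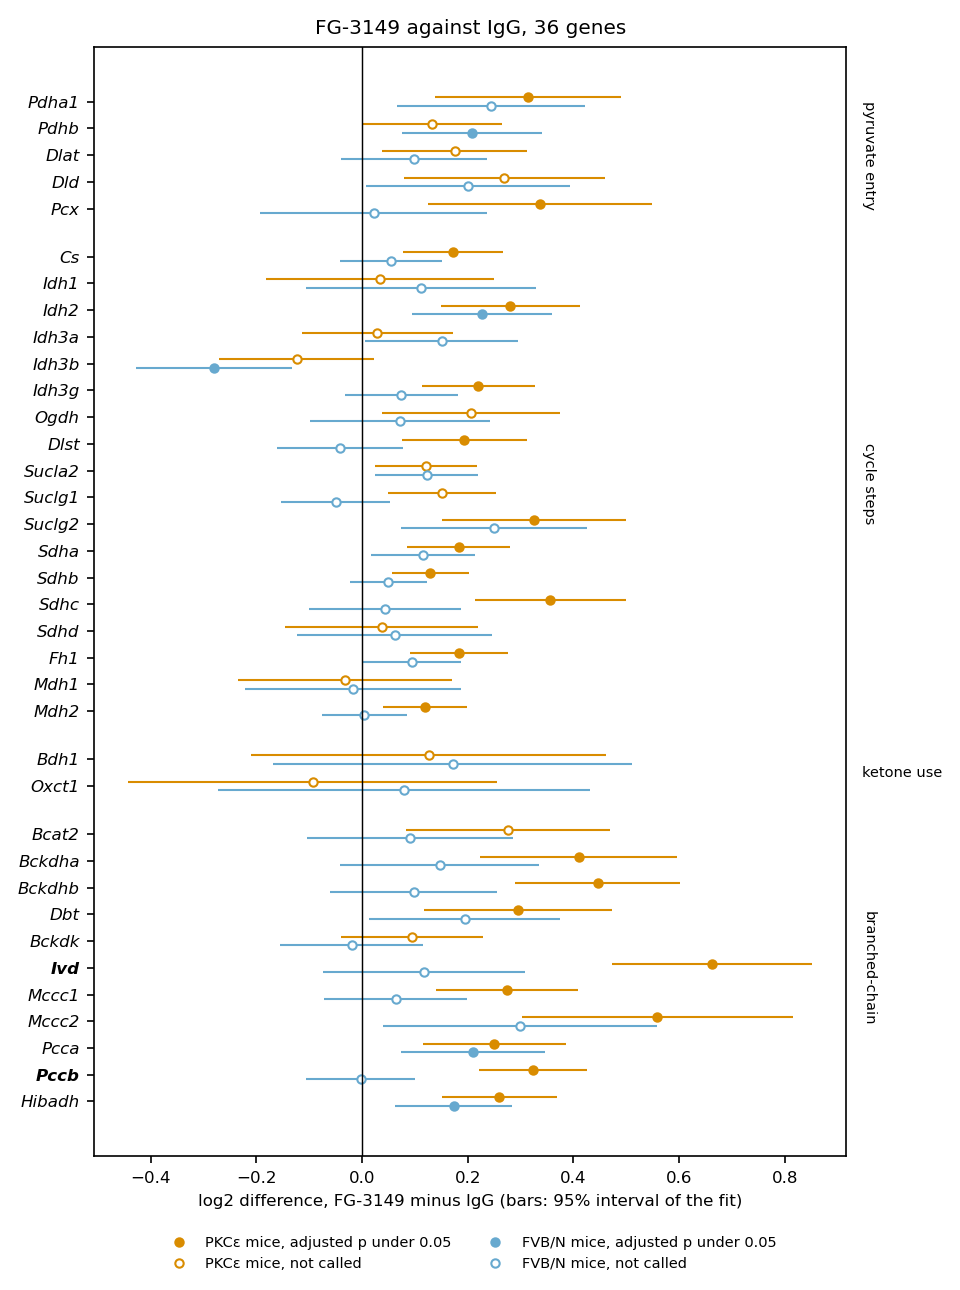
The log2 difference of FG-3149 minus IgG for each of the 36 genes, by role group, in PKCε mice (orange) and FVB/N mice (blue), with bars for the 95% interval of the fit, open circles for genes not called, and bold names for the 2 genes whose antibody effect differed between the lines. Ivd lies furthest right in PKCε mice at 0.66, while Bdh1 lies at 0.13 and Oxct1 at -0.093.

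Ivd had values of -0.46, -0.092 and 0.15 in PKCε FG-3149 hearts and -1.76, -0.67 and -0.27 in PKCε IgG hearts. The ranges overlapped, with the lowest PKCε FG-3149 array above the IgG median, and the difference was 0.66 ± 0.094 (adjusted p = 1.94e-05), a level 158% of that under IgG. Pccb stood at -0.092, 0.0066 and 0.34 in PKCε FG-3149 hearts and at -0.58, -0.28 and 0.031 in PKCε IgG hearts, a difference of 0.32 ± 0.051 (adjusted p = 5.82e-05). Its highest IgG array, at 0.031, was the only one within the range of the antibody group.

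Bckdhb values were -0.34, -0.18 and -0.015 in PKCε FG-3149 hearts and -1.26, -0.57 and -0.20 in PKCε IgG hearts, and the difference was 0.45 ± 0.078 (adjusted p = 0.000231). Bckdha was higher by 0.41 ± 0.092 (adjusted p = 0.00341) and Dbt by 0.30 ± 0.089 (adjusted p = 0.029), so that the 3 subunits specific to the branched-chain complex were all called. Mccc2 was higher by 0.56 ± 0.13 (adjusted p = 0.00384). Mccc1 stood at -0.41, -0.23 and 0.098 in PKCε FG-3149 hearts and at -0.74, -0.44 and -0.26 in PKCε IgG hearts, a difference of 0.27 ± 0.066 (adjusted p = 0.0063). Hibadh had values of -0.34, -0.18 and 0.026 in PKCε FG-3149 hearts and -0.83, -0.36 and -0.12 in PKCε IgG hearts, and differed by 0.26 ± 0.054 (adjusted p = 0.00159). For both genes the ranges overlapped. Bcat2 and the kinase Bckdk were the 2 branched-chain genes not called, at 0.28 ± 0.096 (adjusted p = 0.0608) and 0.095 ± 0.066 (adjusted p = 0.441).

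In the cycle, Sdhc had values of -0.34, -0.061 and 0.016 in PKCε FG-3149 hearts and -0.96, -0.45 and -0.17 in PKCε IgG hearts, and rose by 0.36 ± 0.071 (adjusted p = 0.00107) in the probe set used. Its second probe set gave 0.14 (adjusted p = 0.178). Idh2 stood at -0.20, -0.063 and 0.15 in PKCε FG-3149 hearts and at -0.86, -0.27 and 0.018 in PKCε IgG hearts, a difference of 0.28 ± 0.065 (adjusted p = 0.00436). Idh3g was at -0.37, -0.14 and -0.032 in PKCε FG-3149 hearts and at -0.66, -0.33 and -0.16 in PKCε IgG hearts, a difference of 0.22 ± 0.053 (adjusted p = 0.00578), against 0.096 in its second probe set (adjusted p = 0.244). In each of these 3 genes the arrays of PKCε IgG hearts reached lower and the ranges overlapped.

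Suclg2, Cs, Dlst, Sdha, Fh1, Sdhb and Mdh2 completed the 10 cycle genes called, with differences between 0.12 for Mdh2 and 0.33 for Suclg2. Mdh2 lay just inside the threshold (adjusted p = 0.0496) and was called under none of the 15 alternative settings other than leaving out single arrays. Suclg1, at -0.50, -0.22 and -0.03 in PKCε FG-3149 hearts and -0.71, -0.39 and -0.17 in PKCε IgG hearts, differed by 0.15 ± 0.05 and just missed (adjusted p = 0.0501). Sdhb values were -0.20, -0.11 and -0.0081 in PKCε FG-3149 hearts and -0.46, -0.21 and -0.047 in PKCε IgG hearts, a difference of 0.13 ± 0.036 (adjusted p = 0.0175).

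Of the pyruvate entry genes, Pdha1 had values of -0.46, -0.20 and 0.27 in PKCε FG-3149 hearts and -0.84, -0.49 and -0.16 in PKCε IgG hearts, and rose by 0.31 ± 0.088 (adjusted p = 0.0177), while its second probe set gave 0.12 (adjusted p = 0.063). Pcx stood at -0.40, -0.096 and 0.16 in PKCε FG-3149 hearts and at -1.08, -0.44 and 0.064 in PKCε IgG hearts, and its chosen probe set differed by 0.34 ± 0.11 (adjusted p = 0.0359). The 4 other Pcx probe sets gave 0.12, 0.02, 0.02 and -0.01 with adjusted p-values of 0.457 or more, so the Pcx call rests on 1 probe set. Dlat differed by 0.18 ± 0.068 and Dld by 0.27 ± 0.095 (adjusted p = 0.101 and 0.0653). In PKCε FG-3149 hearts Dlat had values of -0.31, -0.14 and 0.024 and Dld of -0.41, -0.20 and 0.073, both overlapping the IgG ranges given above.

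Across the set, 10 of the 21 called genes had more than 1 probe set. For 4 of these (Cs, Hibadh, Ivd and Sdha) every other probe set passed too, and for 6 (Dlst, Idh3g, Mdh2, Pcx, Pdha1 and Sdhc) none did. Conversely, another probe set passed for Dlat, Idh3a, Pdhb and Sdhd, 4 of the 9 genes with several probe sets that were not called.

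Neither ketone gene was called. Bdh1 stood at -0.89, -0.30 and -0.053 in PKCε FG-3149 hearts and at -0.98, -0.45 and 0.052 in PKCε IgG hearts, ranges that nearly coincide, and differed by 0.13 ± 0.17 (adjusted p = 0.727, 95% interval -0.21 to 0.46). Oxct1, at -1.01, -0.17 and 0.39 in PKCε FG-3149 hearts and -0.64, -0.14 and 0.22 in PKCε IgG hearts, differed by -0.093 ± 0.17 (adjusted p = 0.823), and its other probe sets by 0.11, -0.0079 and 0.0041. Probe sets also disagreed in sign for Idh1, at 0.03 and -0.05, for Idh3b, at -0.12 and 0.09, and for Mdh1, at -0.03, 0.06, 0.02 and 0.01, none of which was called.

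Several measurements moved with the antibody difference in PKCε mice. The ventricular marker mean was -0.065 ± 0.05 in PKCε FG-3149 hearts (SD, n = 12; range -0.16 to 0.03) and -0.18 ± 0.11 in PKCε IgG hearts, with 4 of its 13 genes called higher (Myh6, Pln, Atp2a2 and Ckm). The 3' minus 5' signal of Gapdh, a sign of RNA quality that rises as RNA degrades, was 0.037 ± 0.11 in PKCε FG-3149 hearts and 0.30 ± 0.25 in PKCε IgG hearts (SD, n = 12 and n = 10). Of 8 fibroblast markers 3 were lower, Col1a2, Col3a1 and Postn. The count of 21 was again 21 without the arrays of high Ucp1, and became 10 without the 10 arrays of high atrial markers, 9 without the 2 arrays of high lung markers, 8 with the Gapdh measure as a covariate and 3 with the ventricular marker mean as one. Under these settings, in that order, 5.41%, 2.28%, 2.04%, 2.26% and 0.936% of all genes were called higher. The part of these measurements in the result was not tested. The PKCε IgG array with the lowest mean over the set was replicate 9, at -0.73, which also carried lung transcripts, and 15 genes were called without it. The share of all genes called without replicate 9 was not computed. Bckdhb, Ivd and Pccb were the 3 genes called under every alternative setting tried, as far as each could be run.

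Outside the set, Klf15 was higher by 0.56 ± 0.10 in PKCε FG-3149 hearts (adjusted p = 0.000435) and Aldh6a1 by 0.35 ± 0.087 (adjusted p = 0.00682). Related genes were called higher in 6 of 16 cases for branched-chain breakdown, 3 of 15 for the cycle, 3 of 10 for pyruvate entry and 1 of 5 for ketone use. Got2 was higher by 0.34, Slc25a11 by 0.26, Lias by 0.21 and Acat1 by 0.26, while the carrier Slc16a7 was at 0.088 ± 0.092 (adjusted p = 0.648). Fatty acid oxidation genes were called higher in 12 of 20 cases and respiratory chain subunits in 9 of 39.

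In FVB/N mice the antibody left most of the set uncalled. Pdhb, Idh2, Pcca and Hibadh were higher in FVB/N FG-3149 hearts than in FVB/N IgG hearts, by 0.21, 0.23, 0.21 and 0.17, where 4.43% of all genes were called higher. Idh3b was lower by 0.28 (adjusted p = 0.0111), where 4.57% were called lower, but its second probe set gave -0.03 (adjusted p = 0.709). Idh2 stood at 0.11, 0.22 and 0.47 in FVB/N FG-3149 hearts and at -0.28, 0.00053 and 0.28 in FVB/N IgG hearts, a difference of 0.23 ± 0.066 (adjusted p = 0.0231). Hibadh had values of 0.18, 0.38 and 0.63 in FVB/N FG-3149 hearts and -0.13, 0.14 and 0.38 in FVB/N IgG hearts, a difference of 0.17 ± 0.055 (adjusted p = 0.0371).

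The median over the set was 0.096, against 0.025 over all genes. At an unadjusted p under 0.05 in limma 13 genes of the set were higher and 1 lower, and 30 of the 36 estimates were above 0. The share of all genes at that level was not computed. The FVB/N IgG group held 5 of the 10 atrial arrays and all 4 arrays of high Ucp1, with atrial marker means of -2.97 to 4.40 in FVB/N FG-3149 hearts and -1.16 to 8.47 in FVB/N IgG hearts. All 5 calls were lost without the 10 atrial arrays and also without the 4 arrays of high Ucp1, and the 4 higher calls were lost without FVB/N IgG replicate 2. Without the atrial arrays 0.831% of all genes were called higher and 0.92% lower, and without the Ucp1 arrays 1.45% and 1.28%. The higher calls also came down to 1 without FVB/N FG-3149 replicate 3 or 11 or FVB/N IgG replicate 1 or 3, and to 2 without FVB/N FG-3149 replicate 1, 6, 7 or 12 or FVB/N IgG replicate 7. All-gene shares without single arrays were not computed.

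Whether the antibody difference itself depended on the line was tested directly. Of the 36 genes, 2 were called, Ivd and Pccb, both with a larger rise in PKCε mice, where 2.09% of all genes were called in that direction and 1.78% in the other. For Ivd the difference between the lines was 0.55 ± 0.13 (adjusted p = 0.0118), with an antibody difference of 0.66 in PKCε mice and 0.12 in FVB/N mice. A second Ivd probe set gave 0.36 for this difference and did not pass (adjusted p = 0.0527). Ivd values in FVB/N mice were 0.023, 0.32 and 0.53 under FG-3149 and -0.13, 0.11 and 0.62 under IgG. For Pccb the difference was 0.33 ± 0.072 (adjusted p = 0.00429), with an antibody difference of 0.32 in PKCε mice and -0.0022 in FVB/N mice. Pccb values in FVB/N mice were -0.094, 0.055 and 0.40 under FG-3149 and -0.11, 0.03 and 0.27 under IgG. For both genes the FVB/N ranges overlapped almost wholly.

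Both interaction calls held without each single array in turn, and without FVB/N IgG replicate 2 the count became 4. They were lost when sex was left out of the fit (adjusted p = 0.0988 for Ivd and 0.0548 for Pccb) and without the 10 atrial arrays (0.116 and 0.153), where Sdhc was called instead at 0.41 (adjusted p = 0.0422). Without sex in the fit 1.77% of all genes were called higher in the interaction, and without the atrial arrays 0.565%. Such shares were not computed without single arrays. Bckdhb, at 0.35 ± 0.11 (adjusted p = 0.0647), and Sdhc, at 0.31 ± 0.10 (adjusted p = 0.0685), came next and did not pass. At an unadjusted p under 0.05 in limma 9 genes of the set were higher in the interaction and none lower. The share of all genes at that level was not computed. The PKCε effect under IgG, the antibody effect in PKCε mice and the interaction share the PKCε IgG arrays.

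Each sex was also compared on its own. In females, 32 genes were lower in PKCε IgG hearts than in FVB/N IgG hearts, where 22.0% of all genes were called lower, and in males 30, where 7.29% were. The sex difference of this effect was called for none of the 36 genes in limma, 0 at the unadjusted level, where 0.0807% of all genes were called in either direction. Bdh1 differed by -1.68 ± 0.22 in females and -1.50 ± 0.27 in males, and Suclg1 by -0.68 ± 0.067 in females and -0.59 ± 0.083 in males. The female count of 32 was 32 without the atrial arrays, 31 without the lung arrays and 31 without the arrays of high Ucp1, and the male count of 30 was 29, 30 and 26 under these settings. For the sex fits, all-gene shares under these settings were not computed. Without the atrial arrays Bdh1 was called for the sex difference, at -0.95 (adjusted p = 0.0325), against -0.18 ± 0.35 (adjusted p = 0.899) in the main sex fit. Within PKCε IgG hearts, Bdh1 values were -0.98, -0.75 and -0.61 in the 5 females and -0.30, -0.21 and 0.052 in the 5 males. These 2 ranges do not meet, but the gene was picked after that call. The share of all genes separated so was not computed, and the 5 females include both arrays with lung transcripts.

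The antibody difference in PKCε mice was called higher for 23 genes in females, where 5.99% of all genes were, and for none in males, where 0.0323% were and where 7 genes of the set passed at the unadjusted level. The female count became 9 without the 2 lung arrays, both of them female, 14 without the atrial arrays, 25 without the arrays of high Ucp1 and 9 with quantile normalization, where the male count became 1. All-gene shares under these settings were not computed, so a loss of calls particular to the set cannot be told from one over all genes. In males 31 of the 36 estimates were above 0, with a median of 0.11, and in females 32, with a median of 0.31. The sex difference itself was called for none of the 36 genes, where 0.0161% of all genes were called, with 13 past an unadjusted p of 0.05, all larger in females. Ivd stood at -0.46, -0.24 and 0.12 in PKCε FG-3149 females and at -1.76, -1.03 and -0.71 in PKCε IgG females. These female ranges did not overlap, but the IgG one holds both lung arrays, and the share of all genes separated so was not computed. In males it stood at -0.36, -0.034 and 0.15 under FG-3149 and at -0.63, -0.44 and -0.27 under IgG, with overlap. The differences were 0.92 ± 0.12 in females and 0.41 ± 0.12 in males, and their contrast was 0.51 ± 0.17 (adjusted p = 0.395). The female and male groups in IgG-treated PKCε mice hold 5 arrays each.

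**Figure D4:**
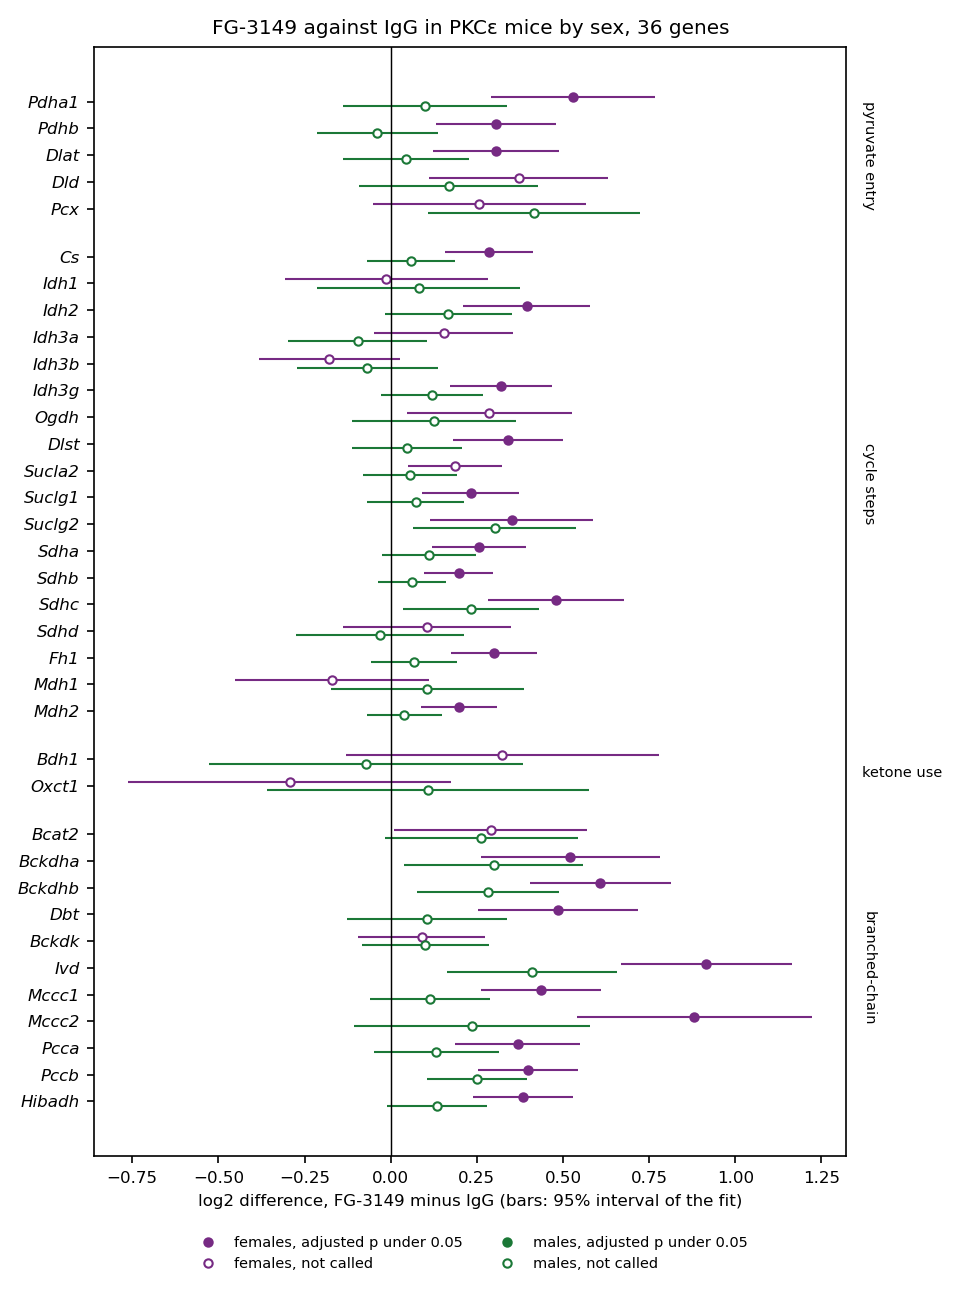
The log2 difference of FG-3149 minus IgG in PKCε mice for each of the 36 genes, in females (purple) and males (green), with bars for the 95% interval of the fit and open circles for genes not called. In females 23 genes are called and in males none (9 and 1 with quantile normalization, 9 and 0 without the 2 lung arrays), while 31 of the male points lie right of 0. Of all genes, 5.99% were called higher in females and 0.0323% in males in the main sex fit, and these shares were not computed under the other settings.

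The genes of the set also varied together between mice of one group and sex. After each gene was centred on its mean within group and sex, the median Pearson correlation over the 44 arrays was 0.45 among the 630 pairs of the set, of which 552 were above 0, against 0.013 between the set and all genes tested. These arrays share tissue, RNA quality and array-wide effects. It was 0.51 among the branched-chain genes, where all 55 pairs were above 0, 0.49 among the cycle genes and 0.26 among the pyruvate entry genes, and 0.70 between Bdh1 and Oxct1. Sdha, at a median of 0.60 with the other genes, and Dlst, at 0.58, lay closest to the rest. Pcx, at 0.046, and Idh3b, at -0.17, followed it least.

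Over all 44 arrays, group differences included, the 5 genes most like Suclg1 were Uqcrfs1 (r = 0.96), Gatd3a, Sdhb, Gsta4 and Grb14 (r = 0.95 for the last). Those most like Bdh1 were Mrpl51 (r = 0.95), Acad11, Fhl2, Msra and Aifm1 (r = 0.93 for the last). Sdhb, itself a gene of the set, was the third in the order for Suclg1, and none of the 5 for Bdh1 belongs to the set.

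**Figure D5:**
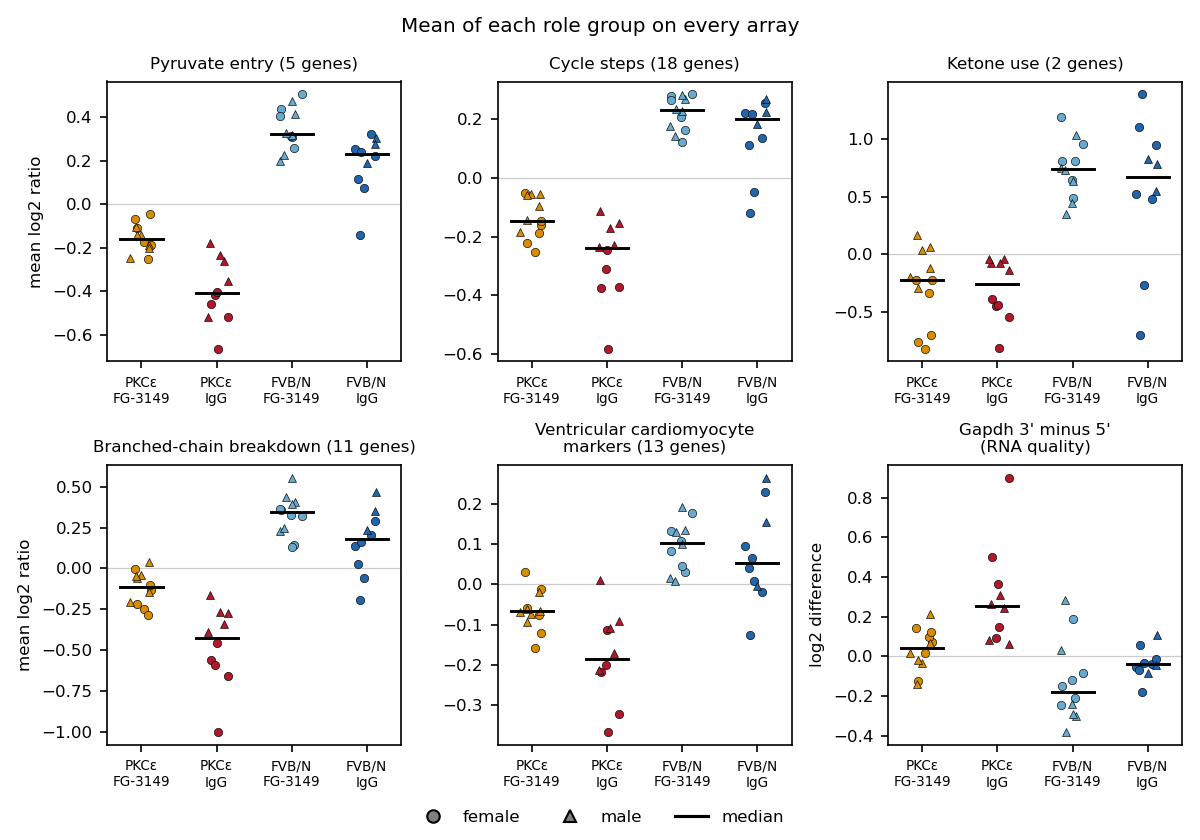
The mean log2 ratio of each role group, of 13 ventricular cardiomyocyte markers, and the 3' minus 5' difference of Gapdh on each of the 44 arrays, with circles for females, triangles for males and a black line for the group median. For branched-chain breakdown the medians are -0.12 in PKCε FG-3149 hearts, -0.42 in PKCε IgG hearts, 0.34 in FVB/N FG-3149 hearts and 0.18 in FVB/N IgG hearts, whereas for ketone use the 2 PKCε groups lie together at -0.22 and -0.26.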

How the data were processed

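The authors deposited 1 table of expression ratios for 44 arrays. Per the series' design text and the submitters' processing notes, signals were summarised with GCRMA and GeneSpring GX 7.3.1 then set each probe set relative to its own median; the median of every probe set was 1 in the deposited ratio table. Arrays give no read depth, and their number limits the precision. Probe sets with 1 gene symbol were kept (20393 of 22690), and each gene was read from its most variable probe set (highest SD across 44 arrays), giving 12394 genes. Ratios were taken to log2, fitted with limma 3.58.1 (R 4.3.3) with 4 groups and sex, and p-values were adjusted over all genes (Benjamini-Hochberg, called under 0.05). Sex-specific effects came from a fit of the 8 group and sex cells. Separate mice are labelled per array, and no 2 arrays held identical values. Array values are given for Suclg1, Bdh1 and, in each role group, the 3 genes with the lowest p of the PKCε effect under IgG and the 2 with the lowest p of the antibody effect in PKCε mice. Other probe sets are given where they disagree in sign in the latter, and for some genes where they differ in size or call. Up to 4 related genes per list were named by the same p-values. Members and lists were chosen with earlier results of these data known. The method was tested on simulated data with independent noise for each gene, which lack the shared variation and neighbouring-tissue transcripts of these arrays.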

Additional observations from a re-analysis of the deposited data

Results flagged for a closer look

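On 3 occasions an array lay far from the other 9 of its group, among 72 groups tested. Chance gives about 1 in 20 for independent tests. These groups share arrays and their genes vary together, so that rate cannot be applied to the 3. Oxct1 was at -0.64 in PKCε IgG replicate 9, 1 of the 2 arrays with lung transcripts. Sucla2 was at -0.39 and Sdhc at -0.45 in FVB/N IgG replicate 2, the array with the highest atrial marker mean. The antibody difference was larger in PKCε mice than in FVB/N mice by 0.55 for Ivd and by 0.33 for Pccb, by the interaction term in limma.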

How the results depend on the processing

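The count of 34 genes lower under IgG became 22 with the ventricular marker covariate, where Bckdk (0.018), Idh2 (0.029) and Ogdh (0.10) turned to positive estimates, and was 27 to 36 under the other settings, the 27 being all of the called genes left among the more variable ones. With the ventricular covariate 7.01% of all genes were called lower. The 21 genes higher with the antibody in PKCε mice became 11 at an adjusted p under 0.01, 10 without the atrial arrays, 9 without the lung arrays, 8 with the Gapdh covariate and 3 with the ventricular covariate. All-gene shares called higher were 1.92%, 2.28%, 2.04%, 2.26% and 0.936% under these settings, in that order. These last 4 settings, and leaving out the Ucp1 arrays, were chosen after seeing the data. In FVB/N mice the 4 higher genes became 1 with a replicate block, 1 with array medians centred, 2 with only the groups compared, 2 with the Gapdh covariate, and 0 at an adjusted p under 0.01 and without the atrial or the Ucp1 arrays. All-gene shares called higher were 3.11%, 3.45%, 3.46%, 3.90%, 1.69%, 0.831% and 1.45%, in that order. The 1 lower gene became 0 with only the groups compared, at an adjusted p under 0.01, and without the atrial or the Ucp1 arrays. The interaction count of 2 became 0 without the sex term, 1 with the less variable genes left out, 4 with array weights, 1 at an adjusted p under 0.01 and 1 without the atrial arrays, where Ivd and Pccb were both lost and Sdhc was called. All-gene shares called higher in the interaction were 1.77%, 3.73%, 2.32%, 0.847% and 0.565%, in that order. With quantile normalization the antibody count in PKCε mice was 9 in females, against 23, and 1 in males, against 0; the female count was also 9 without the lung arrays and 14 without the atrial arrays, which gave 1 lower call, Bdh1, for the sex difference of the PKCε effect. All-gene shares for these sex counts were not computed. Causes were not tested.

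Leaving out single arrays gave 32 to 34 lower genes under IgG, 15 to 25 higher with the antibody in PKCε mice, 0 to 6 higher and 1 lower in FVB/N mice, 29 to 32 lower under FG-3149 and 2 to 4 interaction calls. The replicate numbers do not pair the mice: over 62 same-numbered pairs the residual correlations ran from -0.50 to 0.35 with a median of -0.051. With the replicate number as a block, 32 genes were lower under IgG, 16 higher with the antibody in PKCε mice, 30 lower under FG-3149 and 2 called higher in the interaction. The shares of all genes called in these directions were 21.0%, 3.70%, 24.3% and 1.76%, in that order. Without single arrays such shares were not computed. The fit of only the groups compared gives no interaction value.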
